A study of Mus musculus with 302 samples.

Results

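The genes described here encode the proteins of the cytosolic ribosome, measured in the livers of 302 mice. They were chosen by symbol: every array probe naming a single gene of the Rpl or Rps numbered series, or Rplp0, Rplp1, Rplp2 or Rpsa, without Rps3 and the Rps6k kinases. The rule found 180 of the 23562 probes deposited, and 178 of these had values in at least 90% of mice, among 23512 such probes in all. A Rpl10 probe with values in 53.0% of mice and a Rps18 probe with values in 78.5% were left out. The 178 probes represent 41 of the 10839 named genes, 30 of the large (60S) and 11 of the small (40S) subunit. The number of probes per gene ran from 1, for 15 genes, to 20, for Rpl29.

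All mice were F2 animals of both sexes from a cross of C57BL/6J with C3H/HeJ mice, 2 inbred strains, made in both directions. A chow of 4% fat was given to age 8 weeks and a Western diet of 42% fat and 0.15% cholesterol for the following 12 weeks, and livers were collected at 20 weeks after 12 h without food. On each 2-colour array the RNA of 1 mouse was set against a common pool made from all of them, so a value is a log10 ratio of that mouse to the pool; base and direction are not stated and were read as likely. The labels put all mice in 1 group and give no sex, genotype or trait for a mouse, so the series holds no untreated or parental control, and relations were taken after centring in 4 blocks of mice. These blocks combine the Y-linked marker Eif2s3y (ratio below or above -0.8) with the mouse number in the title (up to 212, or above), and hold 77 (low, up to), 65 (low, above), 82 (high, up to) and 78 (high, above) mice, and block values follow this order.

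Each ribosome carries close to a single copy of nearly every one of its proteins, so their synthesis is matched to one another and to ribosomal RNA. In mammals much of this matching lies in translation: the mRNAs begin with a short tract of pyrimidines at the 5′ end (the 5′ TOP), through which mTOR and the RNA-binding protein Larp1 set whether they are translated. Feeding, fasting and growth signals act on this pathway in liver.

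Pyrimidine runs around the annotated start of transcription were read from the genome. RefSeq promoters of the assembly GRCm38.p6 were matched for 32 of the 41 genes, 37 promoters in all. Shown are the 5 genes that followed the other members most closely in these livers and 3 from the low end of that order. Each has exactly 1 promoter in that table. The low end is not complete, as Rpl17 (r = -0.0203) and Rpl19 (0.106) are not shown. Sequences run from 30 bases before the start to 20 bases from it onward. Every run of at least 5 C or T is in capitals.
Rpl6 (chr5:121204471-121204520, + strand): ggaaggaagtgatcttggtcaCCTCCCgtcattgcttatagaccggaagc
Rpl10l (chr12:66284382-66284431, - strand): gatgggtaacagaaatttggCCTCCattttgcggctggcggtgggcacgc
Rps15 (chr10:80292401-80292450, + strand): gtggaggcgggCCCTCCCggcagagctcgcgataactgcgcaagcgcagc
Rpl37a (chr1:72711230-72711279, + strand): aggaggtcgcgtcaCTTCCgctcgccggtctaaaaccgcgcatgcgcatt
Rpl10 (chrX:74270786-74270835, + strand): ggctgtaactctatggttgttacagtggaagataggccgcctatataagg
Rps25 (chr9:44407684-44407733, + strand): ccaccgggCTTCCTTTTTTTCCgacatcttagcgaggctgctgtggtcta
Rpsa (chr9:120127736-120127785, + strand): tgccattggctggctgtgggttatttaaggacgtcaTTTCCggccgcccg
Rpl5 (chr5:107900498-107900547, + strand): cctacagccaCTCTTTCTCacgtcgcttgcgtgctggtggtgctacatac
Among the genes shown, the longest runs, 14 bases in Rps25 and 9 in Rpl5, belong to genes from the low end. Rpl10 has no run above 4 bases in this window. Apart from that of Rpsa, the runs shown end before the annotated start, so they are not the first bases of the annotated mRNA.

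An unbroken run of at least 8 C or T stood in this 50-base window in 19 of the 37 member promoters (51.4%), against 20.2% of all 32851 promoters of the table. The letters CTTTC were found in 24.3% of member windows and 12.5% of all, and CTCTT in 27.0% and 13.9%, counting both strands. On the sense strand alone, as the run was counted, CTTTC stood in 24.3% and 6.86% and CTCTT in 27.0% and 7.01%. These motifs can overlap each other and the run. Over the whole 300 bases, CCGGAA, the core recognised by ETS-family factors, stood on either strand in 48.6% of member promoters and 14.9% of all, and TATAAA in 8.11% and 13.6%. The 17 genes with a run of 8 had a median correlation with the other members of 0.519, and the 15 without had 0.726. These are matches of letters around annotated starts, which can lie some bases from the start used in liver.

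Across the arrays, 0.0831% of values were missing, array medians lay between -0.0117 and 0.0174, and the SD over probes of an array lay between 0.0696 and 0.258 with a median of 0.0975. Being ratios to a pool of the same livers, the values give no level of a gene and cannot show by level that the tissue is liver; 6 of 8 listed hepatocyte genes were measured. Depth has no counterpart here, and precision is limited by the single array per mouse. A lower ratio in a bulk liver may mean fewer cells of a type or less RNA per cell, which cannot be told apart.

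Ribosomal protein probes varied somewhat less between livers, by median SD, than all probes did. The mean over the 41 genes ran from -0.0931 in the lowest mouse to 0.0843 in the highest, with a median of -0.0118, that is from 0.807-fold to 1.21-fold of the pool, a range that averaging over genes narrows. These means were not centred, so the range includes differences between blocks. The block medians were 0.0117, -0.00870, -0.0183 and -0.0364, lower with high Eif2s3y in both number ranges. Within blocks the member probes had a median SD of 0.0555, against 0.0613 for all probes, and 108 of 178 (60.7%) lay below that all-probe median. By gene, the widest spread belonged to Rpl38, a small 60S protein known for its part in translating Hox mRNAs, whose ratios had a lowest value of -0.337, a median of -0.0330 and a highest of 0.244. Its 95th percentile was 2.04-fold its 5th. Rpl37a, a zinc-finger protein of the 60S subunit, ran from -0.202 through -0.0293 to 0.258, a spread of 1.89-fold between those percentiles. Rpl22, an RNA-binding 60S protein, ran from -0.274 through 0.00133 to 0.247. The 40S proteins Rps12 (-0.281, -0.0747, 0.160) and Rps29 (-0.304, -0.0602, 0.174; lowest, median and highest) had medians below the pool.

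The narrowest spreads were those of Rpl28, Rpl9, Rpl19, Rps7 and Rpl29, with SDs from 0.0256 to 0.0318. Rpl28, a 60S protein measured by 1 probe, had a 95th percentile 1.19-fold its 5th, while its highest mouse reached 0.191. The means of Rpl9 (11 probes), Rps7 (7) and Rpl29 (20) averaged many probes that moved apart, which lowers the spread of a mean.

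**Figure D1:**
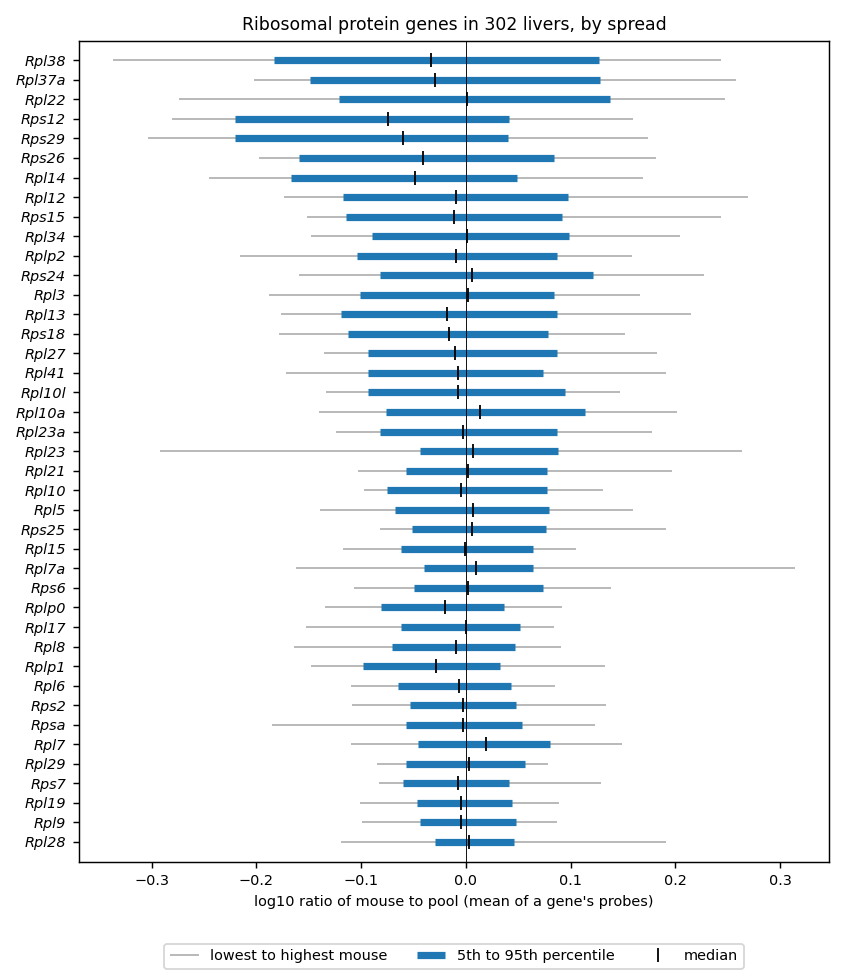
Ratios of the 41 genes to the pool in 302 livers (horizontal axis, log10 ratio, mean of a gene's probes), ordered by block-centred SD. Grey lines run from the lowest to the highest mouse, blue bars from the 5th to the 95th percentile and ticks mark the median; Rpl38 at the top spans -0.337 to 0.244 and Rpl28 at the bottom has the shortest bar.

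Single probes seldom stood out. Of the 178, 4 had an SD over 2 times the median of all probes, where 10.7% of all probes did. They measured Rpl21, Rpl23a, Rps2 and Rpsa, and without its farthest mouse only that of Rpl21 (SD 0.131) stayed above the limit of 0.123. The Rpl23a probe had 0.120 without mouse 131. For Rps2 (probe 10024409890) the spread came from mouse 135 at -2, the lower limit of the deposited values, and the SD of 0.139 fell to 0.0785 without it. For Rpsa (probe 10024414965) mouse 100 stood at -1.91, and the SD was 0.161 with it and 0.117 without it. Other probes of both genes did not show such a width. Values fell into 2 separate clusters for 1 member probe, of Rps7 (10024413696), with 17 mice in the upper cluster; 2.27% of all probes did so.

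The genes rose and fell together in part. The mean correlation between pairs of the 41 genes was 0.304, and 87.6% of the 820 pairs were positive. Within the 4 blocks the mean was 0.337, 0.348, 0.213 and 0.325, lowest in mice with high Eif2s3y and numbers up to 212. The subunits did not part: the mean was 0.301 within the large subunit, 0.309 within the small and 0.308 between them. These correlations are over the same 302 arrays, which also share a pool, and are given as a description. Spread common to the array moved with them: the member mean had r = 0.411 with the array's median, 0.231 with the array's SD, and 0.614 with the second principal component of all other probes, which holds 9.91% of their variation. Removing the first 2 such components left a mean pairwise r of 0.251, and centring each array on its median left 0.275. With each probe on its own in place of gene means it was 0.180, and over the genes with 1 probe 0.215.

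Against the mean of the other members, the median r of a gene was 0.615; 26 genes were above 0.5, 13 above 0.7, and 7 were at 0.3 or lower. In 38 of the 41 genes r was positive in all 4 blocks. Rpl6, a 60S protein, came highest at r = 0.830, with block values of 0.803, 0.934, 0.697 and 0.838. It was followed by Rpl10l at 0.821, Rps15, which sits in the head of the 40S subunit, at 0.813, and Rpl37a at 0.805. Rpl10, whose addition is a last step of 60S maturation, had r = 0.789 and Rpl23a, at the exit of the peptide tunnel, 0.772. Rpl41, the smallest ribosomal protein, had 0.749 and Rps26, at the mRNA exit channel, 0.746. Rpl10l is a retrogene copy known from testis that stands in for the X-linked Rpl10 in male germ cells. It correlated with Rpl10 at r = 0.936, and probes for such near-identical copies may bind either mRNA, so its ratio in liver is uncertain.

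At the other end stood Rpl5, which carries 5S RNA into the 60S subunit and binds Mdm2 when ribosome assembly is disturbed, with r = -0.0997 and block values of 0.130, -0.264, -0.125 and -0.137. Without centring its r was 0.115, and Rpl17 was then lower. Its lowest, median and highest ratios were -0.139, 0.00675 and 0.160, from 1 probe. Rpl17, at the tunnel exit, had r = -0.0203 and Rpl19, a 60S protein at the subunit interface, 0.106. The 40S proteins Rpsa, also known as a laminin receptor, and Rps25, needed by several viral entry sites, had 0.233 and 0.239. Rpl3, close to the peptidyl transferase centre, had 0.279, Rpl15 0.284 and Rpl7a 0.309. With the first 2 components of the other probes removed, Rps25 stood at -0.0958, Rpl15 at -0.0295 and Rpl7a at 0.127, while Rpl3 stood at 0.558 and Rpsa at 0.402; Rpl17, near 0, had 0.0260 with centring by marker cluster only. Of these 8 genes, 5 were measured by a single probe (Rpl5, Rpl17, Rps25, Rpl15 and Rpl7a). The probe used for Rpl5 has a database identifier outside the mouse gene table. Across all 41 genes the number of probes had r = 0.0544 with the correlation to the other members, and the median of the latter was 0.519 for genes with 1 probe and 0.681 for the rest.

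**Figure D2:**
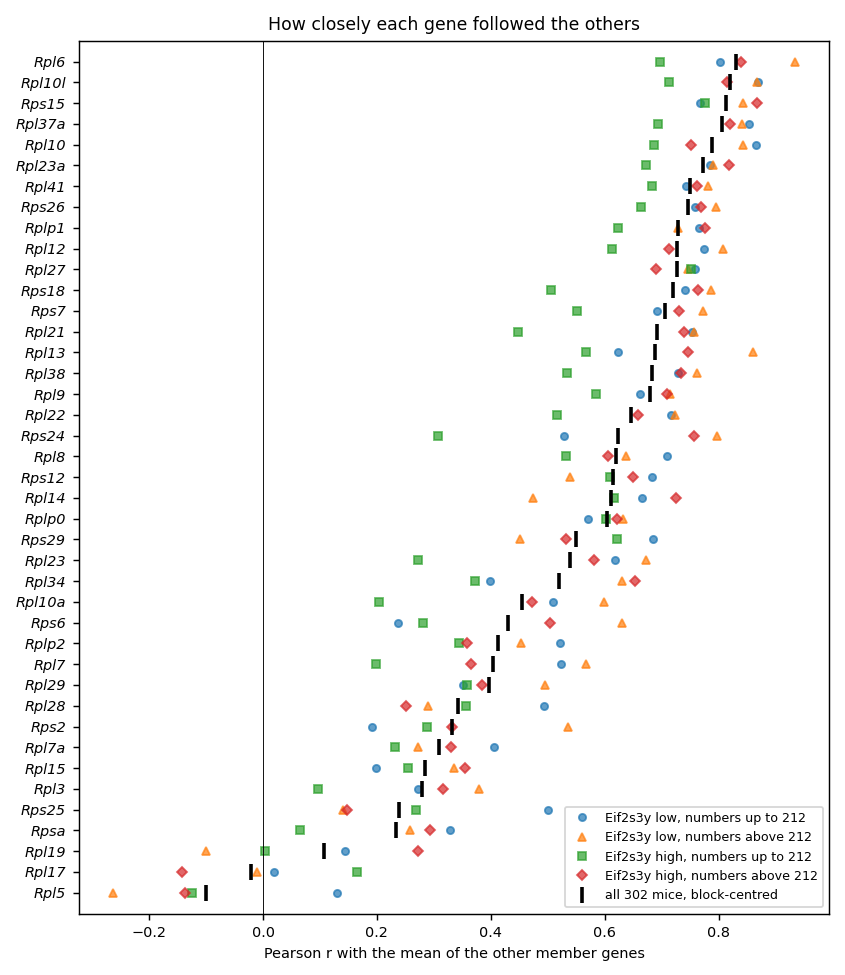
Pearson correlation of each of the 41 genes with the mean of the other 40 (horizontal axis), in each of the 4 blocks (coloured marks) and over all 302 mice after centring (black ticks). The order runs from Rpl6 at 0.830 down to Rpl5 at -0.0997, and the green squares (high Eif2s3y, numbers up to 212) often lie lowest.

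The correlation matrix shows how the genes grouped. After Rpl10 with Rpl10l, the closest pairs were Rpl37a with Rps15 (r = 0.862), Rpl21 with Rpl23a (0.860), Rpl22 with Rpl23a (0.857), Rpl23a with Rps15 (0.849) and Rpl14 with Rps12 (0.815). Of these 5 pairs, 3 join a large and a small subunit gene. Rpl17 ran against several members, with r = -0.343 against Rpl7 and -0.330 against Rpl23. Rpl10a and Rps6, the 40S protein that S6 kinase phosphorylates, were closest to each other (r = 0.776) and then to Rps18 (0.625 and 0.635).

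**Figure D3:**
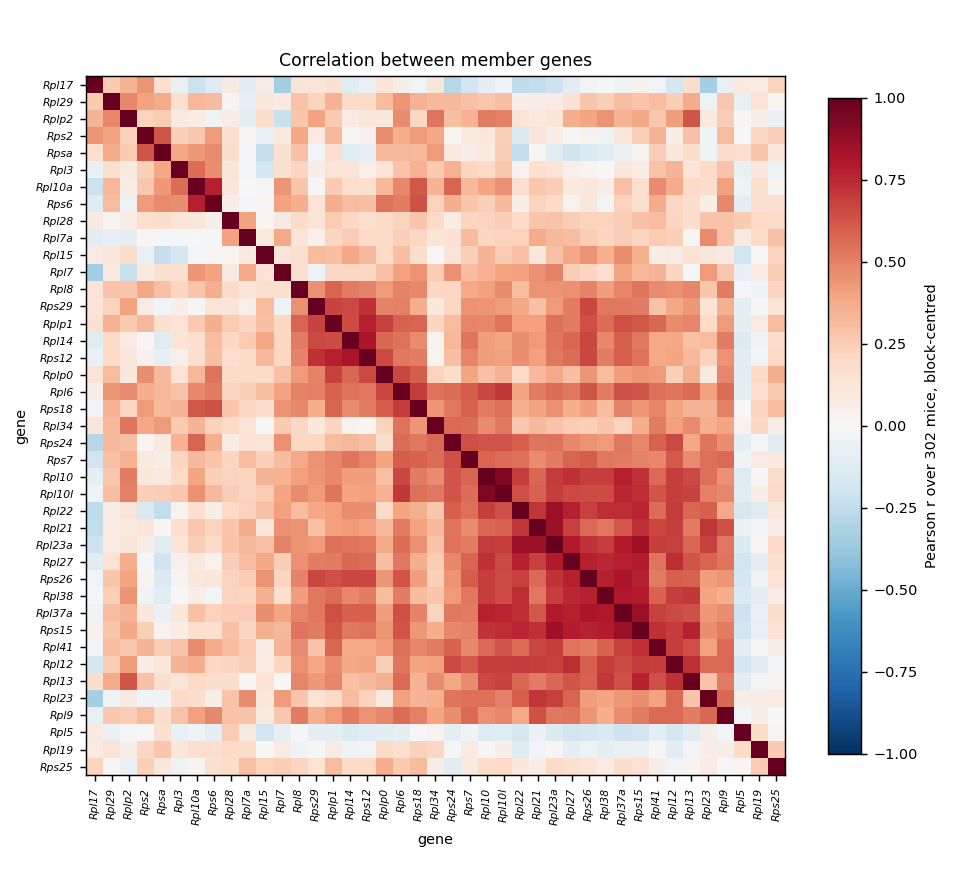
Block-centred Pearson correlations between the 41 genes over 302 mice (colour, from -1 in blue to 1 in red), ordered by average-linkage clustering. A large red group holds Rpl37a, Rps15, Rpl23a, Rpl38 and others, while Rpl5, Rpl19 and Rps25 at one edge and Rpl17 at the opposite edge are pale.

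Of 30 listed pairs of genes, 16 could be computed, and each was tested by permuting mice within blocks, two-sided, with the Benjamini-Hochberg adjustment over the 16. Called were 11, of which 10 were positive. Within the stalk, the flexible arm of the 60S subunit that recruits elongation factors, Rplp0 followed Rplp1 at r = 0.685 (Spearman's rho 0.680, permutation p = 1e-05, the smallest these permutations can give, adjusted 2.7e-05), with 0.622 to 0.741 in the 4 blocks. Rplp1 followed Rplp2 at r = 0.264 (rho 0.275, permutation p = 2e-05, adjusted 4e-05). Rplp0 with Rplp2 was at r = 0.109 (rho 0.134, permutation p = 0.063 and 0.021, adjusted 0.084 and 0.027) and did not pass on both measures. Rpsa with Rps2, neighbouring proteins of the 40S subunit, had r = 0.628 (rho 0.644) and Rpl41 with Rpl38 0.589 (rho 0.597), both at the smallest adjusted p of 2.7e-05. Rpl10 with Rpl10a, unrelated proteins despite the names, had r = 0.392 (rho 0.383, adjusted permutation p = 2.7e-05). The 4 relations at r = 0.589 or above changed little when the 2 mice farthest out in the first gene were left out (0.594 to 0.933).

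Over all mice, Rplp0 followed 4 genes of the translation machinery that are outside the symbol rule and whose mRNAs are of the TOP class. They were Fau, which encodes a 40S protein fused to a ubiquitin-like one (r = 0.357, rho 0.326, adjusted permutation p = 2.7e-05), the exchange factor subunit Eef1b2 (0.251, rho 0.231, 4e-05), Tpt1 (0.199, rho 0.214, 0.0015) and the elongation factor Eef2 (0.176, rho 0.163, 0.0065). Without the 2 farthest mice these stood at 0.363, 0.240, 0.167 and 0.168. The relation was not seen in every block: Tpt1 had 0.0478, 0.238, 0.00277 and 0.373, and Eef1b2 0.406, 0.341, 0.0503 and 0.253. Fau ran from 0.299 to 0.445 in the blocks and Eef2 from 0.120 to 0.238. The last 2 calls were lost under other settings: without centring Tpt1 stood at 0.0662 and Eef2 at 0.106, and Eef2 stood at 0.0826 with the first principal component of all other probes removed. Rplp0 with Fbl, Ncl, Npm1 and Myc, 3 nucleolar proteins and a transcription factor of ribosome production, gave r of -0.0161, -0.0379, 0.0445 and -0.0524, none of which passed. Npm1 is also on the list of TOP genes used here, so not every TOP gene tested followed Rplp0. With the first component of the other probes removed, Fbl (-0.179) and Ncl (-0.133) did pass, as did Rplp2 (0.227). With C1qc, a macrophage gene, Rplp0 had r = -0.158 (rho -0.180, permutation p = 0.0056, adjusted 0.0082), which lost its call without centring (-0.114) and was 0.0504 after the first principal component of all other probes was removed and 0.177 after the first 2.

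The gene means hide large differences between probes. For pairs of probes of the same member gene the median r was 0.198 over 652 pairs, 17.6% of which were over 0.8 and 22.1% below 0. For probes of different members the median was 0.143. Other named genes had a like pattern, with a median of 0.219 over 4152 same-gene pairs, 18.2% over 0.8 and 26.3% below 0. The 2 probes of Rpl38 agreed at r = 0.958, the 7 of Rpl12, a 60S protein at the stalk base, at a mean of 0.947 and the 7 of Rpl41 at 0.906. The 3 probes of Rplp0 had a mean r of 0.0284 and the 3 of Rpl19 -0.103. What each probe binds, whether an isoform, a pseudogene or another gene, was not tested.

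Over the 178 probes, the first principal axis held 26.5% of the standardized variation, the second 14.9% and the third 6.00%. With axis 1, 83 probes (46.6%) correlated over 0.5, as did 4.12% of all other probes. With axis 2, 37 (20.8%) did so, against 1.63% of the others. Only 4 probes passed 0.5 on both and 62 on neither. By gene, 30 had a probe over 0.5 on axis 1 and 16 on axis 2, and 13 had probes on each. Both axes were drawn from the members themselves, so their shares among members are a description. In the 4 blocks axis 1 held from 22.2% to 31.1% and axis 2 from 14.8% to 16.9%.

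Axis 2 set Rpsa apart, with r = 0.748 for the mean of its 13 probes, and with it Rps2 (0.626), Rpl10a (0.588), Rps6 (0.570) and Rpl3 (0.523). Among Rplp0 probes, 10024409847 had r = 0.821 with axis 2 and 0.0312 with axis 1, while 10024400788 had -0.324 and 0.594. Rpl6 divided in the same way: probe 10024393664 had 0.893 with axis 2 and 0.183 with axis 1, and 10024406332 had 0.00153 and 0.847. All 7 probes of Rpl12 and of Rpl41 lay far out on axis 1. Mouse number had r = 0.252 with axis 2 and -0.0777 with axis 1, and the second component of all other probes had -0.504 and 0.646.

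**Figure D4:**
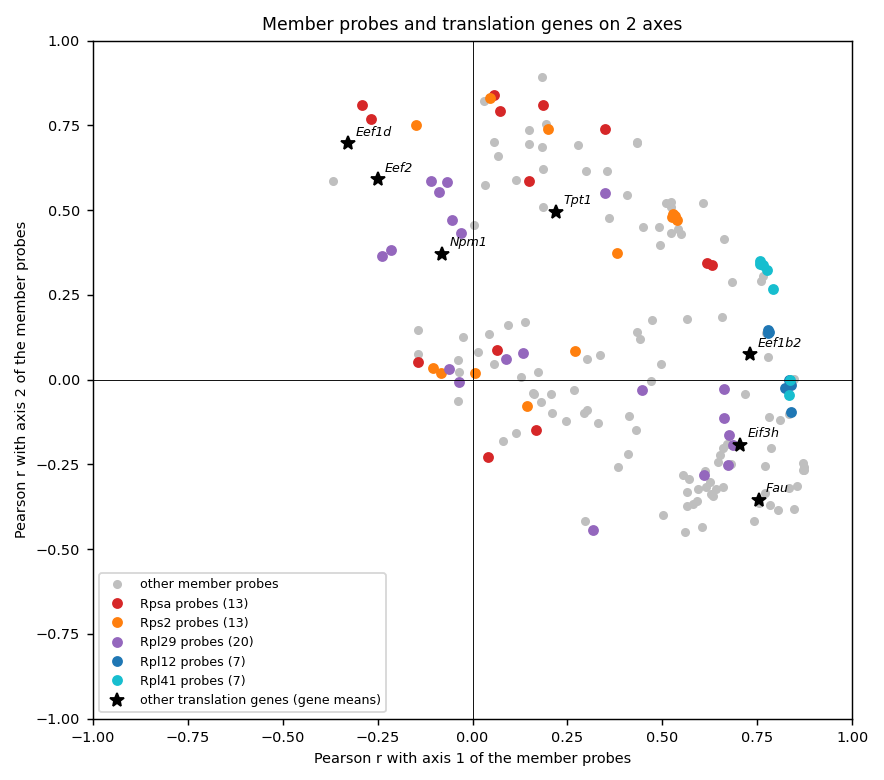
Correlation of each of the 178 probes with axis 1 (horizontal) and axis 2 (vertical) over 302 mice, with 5 genes coloured and 7 translation genes outside the symbol rule as stars. Probes of Rpl12 and Rpl41 gather at the right, probes of Rpsa, Rps2 and Rpl29 scatter over both arms, and Eef1d and Eef2 lie at the top left while Fau and Eif3h lie at the lower right.

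Some genes outside the symbol rule lay along the same 2 arms, and those named here were picked for high or low correlation. Of all other named genes, 13.9% had r over 0.3 with axis 1 and 7.67% with axis 2. Among all other named genes those closest to the member mean were Olfr1208 (r = 0.747), Gm11517 (0.745), Eef1b2 (0.697), Eif3h, a subunit of initiation factor 3 (0.685), Fau (0.683) and the nucleotide hydrolase Hint1 (0.680). They were followed by Trpv4 (0.672), H2-Oa (0.654), Crhbp (0.653), the coagulation factor F10 (0.650), Hint2 (0.648) and Atp5j, a subunit of ATP synthase (0.646). Most rest on a single probe, and an odorant receptor such as Olfr1208 is not a known liver gene. Farthest in the opposite direction were Mal2 (-0.718), the retinoblastoma gene Rb1 (-0.715), Atg4a-ps (-0.703), Clasp1 (-0.698) and Kif16b (-0.683). Only genes with the same sign in every block were eligible, so that agreement in these 17 was set by the choice. On axis 2 the closest included the exchange factor subunit Eef1d (0.699), the pseudogenes Rps24-ps2 (0.636) and Rpl10a-ps2 (0.628), Eif3c (0.592) and Eef2 (0.592).

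Each probe on the array was also tested for a slope on Rplp0, the stalk protein often used as a reference gene, with limma and the Benjamini-Hochberg adjustment at 0.05. Of 175 member probes other than those of Rplp0, 134 rose with it and 2 fell, 77.7% in all, where 56.1% of all probes were called (32.7% rising and 23.4% falling). The median slope was 0.432 for members and 0.0440 for all probes, in log10 units per log10 unit of Rplp0. The surest relations, by p, were those of Rps18 probe 10024395088 (slope 1.56, SE 0.0923, limma adjusted p = 5.97e-42), Rpl9 probe 10024402392 (1.39, SE 0.0828) and Rplp1 probe 10024393420 (1.62, SE 0.0988). The 2 that fell were a Rpl8 probe (slope -0.401, SE 0.0876) and a Rpl29 probe (-0.460, SE 0.152). Each Rplp0 probe alone gave fewer: 81 rose and 12 fell with 10024400231, 108 and 20 with 10024400788, and 70 and 38 with 10024409847, where the shares of all probes called were 58.7%, 58.3% and 37.5%. With the first of them, then, the members' 53.1% in total lay under the share of all probes. By direction, 46.3%, 61.7% and 40.0% of member probes rose with these anchors in turn, against 34.2%, 32.6% and 18.3% of all. Falling were 6.86%, 11.4% and 21.7%, against 24.5%, 25.7% and 19.3% of all. Rps6 as the anchor gave 107 rising and 2 falling, with 41.4% of all probes called (23.4% rising and 18.0% falling). With the first 2 components of the other probes as covariates, 112 rose and 4 fell. Of all probes 25.5% were then called (13.8% rising and 11.7% falling).

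Eef2, which moves the ribosome along the mRNA and is no member, divided the family. Of the 178 probes, 57 (32.0%) rose with it and 68 (38.2%) fell, where 48.9% of all probes were called (24.7% rising and 24.2% falling). Rps2 probe 10024394027 rose with a slope of 0.748 (SE 0.0515, limma adjusted p = 1.48e-33) and Rpsa probe 10024407319 with 0.642 (SE 0.0501). Rpl27 probe 10024394586 had a slope of -0.608 (SE 0.0625, limma adjusted p = 7.19e-18) and the Rpl22 probe one of -0.674 (SE 0.0686). Of the 83 probes over 0.5 on axis 1, 61 fell with Eef2 and 10 rose, while of the 37 on axis 2, 35 rose and 0 fell. Eef2 itself had r = -0.249 with axis 1 and 0.592 with axis 2. Sorting probes by axis therefore largely sets this split, which is given as a description. By each of the 3 Eef2 probes alone the counts were 35 and 50, 60 and 56, and 50 and 68, where 34.6%, 49.8% and 53.9% of all probes were called. With the first 2 components of the other probes as covariates the falling count dropped to 27 (15.2%), below the 17.1% of all probes that fell, and the rising count stood at 57 (32.0%), against 18.3% of all.

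Fbl, the fibrillarin methyltransferase that modifies ribosomal RNA, went mostly with a fall. Of 178 probes, 37 (20.8%) rose with it and 75 (42.1%) fell, where 53.8% of all probes were called (25.5% rising and 28.3% falling), so the rising share lay below that of all probes. A Rps6 probe, 10024404714, had the surest rise (slope 0.702, SE 0.0724, limma adjusted p = 5.71e-18), and Rps15 probe 10024403458 fell at -0.850 (SE 0.104, limma adjusted p = 1.17e-13). Of the axis 1 probes 64 fell and 3 rose, and of the axis 2 probes 28 rose and 0 fell. Fbl itself had r = -0.292 with axis 1 and 0.342 with axis 2, so this split too largely follows from the sorting. With the first 2 components of the other probes as covariates, 22 member probes remained past the threshold in number (17 rising, 5 falling; 12.4%), below the 18.8% of all probes.

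The medians of the TOP and ribosome biogenesis lists lay near that of all other named genes. Of 23 listed translation genes whose mRNAs carry a TOP, 16 were measured. Their median r to the member mean was 0.0392, against 0.0155 for all 10775 other named genes, while the mean of the list had r = 0.432 with it. Above 0.3 were 6 (37.5%, against 14.0% of the other named genes), namely Eef1b2, Eif3h, Fau, Naca (0.536), Btf3 (0.429) and Tpt1 (0.306), and below -0.3 was Nap1l1 (-0.401). Eef1d had -0.201 with the member mean but 0.699 with axis 2. In the fit on Rplp0, 14 of their 41 probes rose (34.1%, near the 32.7% of all probes) and 7 fell. Of 35 listed ribosome biogenesis genes 20 were measured (median 0.0380, and r = 0.233 for the mean of the list). Pes1 (0.589), the rDNA transcription factor Ubtf (0.448) and Rrp1 (0.392) were above 0.3 (15%, near the 14.0% of other named genes) and 0 below -0.3. Of their 30 probes, 11 rose with Rplp0 (36.7%, against 32.7% of all probes) and 1 fell, where 23.4% of all probes fell. In total 40.0% were called, below the 56.1% of all probes. Of 15 regulators of the pathway 10 were measured (median -0.0828, and r = -0.145 for the mean of the list). They ran from Eif4ebp2 (-0.335) and Rps6kb2 (-0.345) to Tsc1, which restrains mTOR (0.479).

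Parts of other complexes were set beside them. Oxidative phosphorylation genes had a median r of 0.418 over 38 genes, 24 of them above 0.3, and their mean had r = 0.663 with the member mean. The 30 mitochondrial ribosomal protein genes had a median of 0.241 and their mean 0.493, and the 30 proteasome genes 0.0865 and 0.133. On axis 2 the median for oxidative phosphorylation was -0.160 and for the mitochondrial ribosome -0.230. Markers of cell types were set beside them too: the mean of 6 hepatocyte genes had r = 0.295 with the member mean, that of 3 B cell genes 0.398, 5 T and NK cell genes 0.149, 8 macrophage genes -0.0817, 4 stellate cell genes -0.241, 6 endothelial genes -0.107, 3 bile duct genes 0.0495, 4 red cell genes -0.0899, 4 pancreas genes 0.0854 and 4 cell cycle genes -0.131. Their part in the members' shared movement was not tested. Rps3, which the rule leaves out, had an SD of 0.111 and r = 0.279 with the member mean, and r = 0.298 and 0.0894 with the axes.

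Mouse number is the only other label. Between the 143 livers numbered above 212 and the 159 numbered up to 212, with the Eif2s3y cluster as a covariate, 48 member probes were higher and 76 lower by limma at an adjusted p of 0.05. That is 69.7% of 178, near the 64.5% of all probes that were called (33.9% higher and 30.6% lower), so the number called is not particular to the family. With each array centred on its median the split was 39 higher and 81 lower. A called probe was found in 36 genes, and in 10 of these genes probes were called in both directions. In 122 of the 124 called probes the sign was the same among mice with low and with high Eif2s3y. The calls were made on both clusters together, so this agreement was favoured by the choice of probes and is no replication.

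The shifts were small, with a median size of 0.0297 among called probes and at most 1.25-fold. The largest was at Rplp1 probe 10024393420, whose mean was -0.0499 ± 0.0695 (SD, n = 159) in lower-numbered and -0.147 ± 0.0935 (SD, n = 143) in higher-numbered mice (difference -0.0971, SE 0.00939, limma adjusted p = 6.43e-20). The other 5 Rplp1 probes differed by between -0.0940 and -0.00778. Rps29 probe 10024401422 went from -0.0333 ± 0.0574 to -0.121 ± 0.0819 and Rps12 from -0.0441 ± 0.0569 to -0.125 ± 0.0814, both lower above 212. For Rpl6 the 8 probes divided evenly: 10024394417 was lower by 0.0804 (difference -0.0804, SE 0.00806) and 10024404309 higher by 0.0706 (SE 0.0124). In Rps18, 10024395088 differed by -0.0794 and the other 3 by 0.0217 to 0.0262. For the Rplp1, Rps29 and Rps12 probes the shift was of the order of the SD within a range. All 7 probes of Rpl41 and all 7 of Rpl12 were lower. Of the 83 probes on axis 1, 64 were lower and 5 higher, and of the 37 on axis 2, 25 were higher and 0 lower. What the mouse number stands for is not in the labels, so time, litter and handling cannot be told apart.

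**Figure D5:**
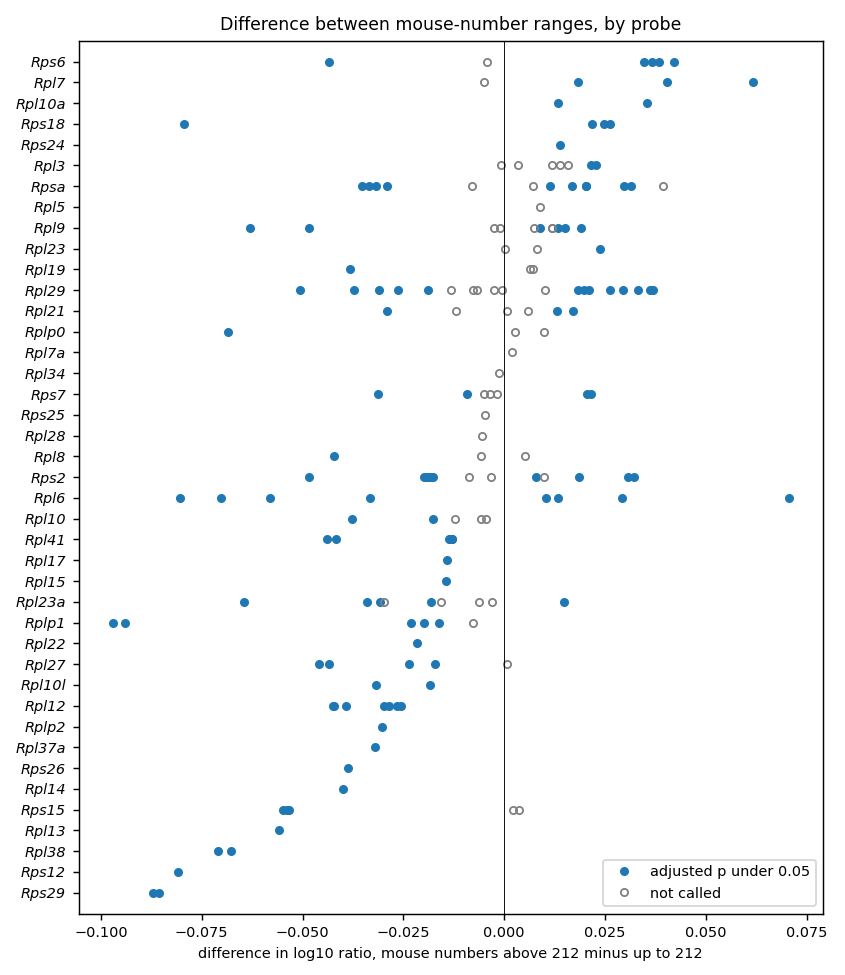
Difference in mean log10 ratio between mice numbered above 212 and up to 212 (horizontal axis), 1 mark per probe, by gene in order of the median. Filled marks have a limma adjusted p under 0.05; Rps29, Rps12, Rpl38 and Rpl13 lie to the left, and Rpl6, Rps18, Rpsa and Rpl29 have filled marks on both sides.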

How the data were processed

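Each of 302 livers was hybridised on its own 2-colour array. The authors deposited 1 log10 ratio per probe and mouse, per the labels against a common pool; the base was read from the limits of -2 and 2, while the sources used here name no image analysis or normalization. Values were used as deposited. Gene names came from a platform annotation updated through a mouse gene table of GRCm38.p6. Probes of a gene were averaged, and correlations were taken after subtracting the mean of each of 4 blocks. Tests across all probes were two-sided limma fits (version 3.58.1, R 4.3.3), called at a Benjamini-Hochberg adjusted p of 0.05, and were tested on simulated data. Gene pairs were tested with 100000 permutations within blocks (numpy 2.4.6, scipy 1.17.1). Separate clusters were called where 2 normal components improved the Bayesian information criterion by over 10, lay over 3 SDs apart and each held 5% of mice. Genes were named by rank of correlation, spread and range difference, with the stalk proteins and Rpsa. The members and lists were chosen with earlier results of these data known. As nothing ties mice to litters, p-values measure the spread between mice as sampled.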

Additional observations from a re-analysis of the deposited data

How the results depend on the processing

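No paired analysis was possible because the labels give 1 group. Rpl4 as an anchor was not run, since it had no member probe. Under the alternatives run, member probes called in either direction numbered 93 to 139 for Rplp0 (with 25.5% to 58.7% of all probes called) and 84 to 135 for Eef2 (34.6% to 57.2%). They numbered 106 to 125 for Fbl (53.7% to 60.5%) and 116 to 132 for the mouse-number range (63.4% to 67.1%). These totals stayed within 1.5 times, but Fbl gave 22 with the first 2 components of the other probes as covariates (18.8% of all probes). The split by direction did not hold throughout: with Rplp0 probe 10024409847 alone 70 rose and 38 fell, against 134 and 2. With Rplp0 probe 10024400231 alone 53.1% of members were called, under the 58.7% of all. For Eef2 with 2 components 57 rose and 27 fell, against 57 and 68. The mean pairwise r was 0.180 with each probe on its own and 0.215 over genes with 1 probe, and the median r with the other members was 0.461 with each probe on its own; the cause was not tested. Wide probes numbered 2 by the median absolute deviation and 9 at 1.5 times the median SD, and separate clusters 2 without centring and 9 at 2 SDs. The looser limits admit more by construction. The shares of all probes at these limits are not given here, so whether the counts are many or few cannot be read. Rplp0 with C1qc turned to 0.0504 and 0.177 with 1 and 2 components removed. Of 287 other values by gene, 258 moved by less than their spread over blocks and 29 by more; of 64 for pairs, 55 kept call and sign, 3 gained the call (Rplp0 with Rplp2, Fbl and Ncl), 4 lost it (Rplp0 with Eef2 under 2 settings, and with Tpt1 and C1qc) and 2 turned. The alternatives with 2 components, single anchor probes and genes of 1 probe were chosen after seeing the data.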
